A study of Arabidopsis thaliana with 32 samples.

Results

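The comparison described here is the state of Arabidopsis thaliana seedlings after 24 h of warming in white light, taken as the 2 libraries of 30WL against the 2 libraries of 21WL at 24 h, which are 4 of the 32 libraries of the series. Wild-type seedlings of the Columbia accession (Col-0) grew for 3 days at 21 °C under constant LED white light of about 70 µE. They were then moved to 30 °C in the same light (30WL) or stayed at 21 °C (21WL), and whole seedlings were pooled and frozen 24 h later. No mutant, hormone or added far-red light was part of these 4 libraries, and the light never went off, so that the clock ran without a day and night cycle. The 2 replicates of each group were biological ones, and whole seedlings mix root, hypocotyl and cotyledon, so that fewer cells of a type and less RNA per cell cannot be told apart. Poly(A) RNA was sequenced, and the libraries of 30WL held 8750851 and 12949448 reads counted on genes, those of 21WL 13729864 and 15445661. Levels are given as CPM, the share of a library's counts after TMM normalization between libraries, and are not per length. The effect of warming is the log2FC of 30WL over 21WL with its standard error (SE). A gene was called where the quasi-likelihood test of edgeR, run on the 20145 genes that passed an expression filter, gave a false discovery rate (FDR) below 0.05 and the log2FC exceeded 1 in size.

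As background, warm temperature below the damaging range makes Arabidopsis seedlings elongate their hypocotyl, a growth program called thermomorphogenesis that works through bHLH factors of the PIF family, above all PIF4, and through auxin. A sudden step up in temperature also frees heat shock transcription factors (HSFs), which bind heat shock elements and induce chaperones that hold or refold damaged proteins. Anthocyanins, the red flavonoid pigments of stressed seedlings, are made by late enzymes of the flavonoid pathway under the control of MYB, bHLH and WD40 proteins, and their synthesis is known to fall in warmth.

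The 4 libraries did not agree equally well. Between the 2 replicates of 21WL, the log2 differences of all genes had an SD of 0.5, the second largest of the 16 groups, against 0.365 between those of 30WL. On the scale of log2(CPM + 1), 234 genes were more than 1 unit higher in replicate 1 of 21WL than in replicate 2, and 87 were higher in replicate 2. Genes that mark this gap were chosen after their values were seen. LEA7, a late embryogenesis abundant protein, had 25.5 and 20.4 CPM in 30WL, against 18.8 and 0.271 CPM in 21WL. RAB18, a dehydrin induced by abscisic acid (ABA), had 32.7 and 27.2 CPM in 30WL, against 20.4 and 1.63 CPM in 21WL. The sulfur deficiency gene ATSDI1 had 21.4 and 11.2 CPM in 30WL, against 98.9 and 3.46 CPM in 21WL. Replicate 2 of 21WL thus stood low in ABA genes and replicate 1 stood high in sulfur deficiency genes, and the same 3 genes varied between 0.506 and 104, 0.731 and 125 and 3.49 and 33.1 CPM in the 21WL libraries of 1, 3 and 6 h. The labels give no batch for this gap. For many of the genes and lists below, it is therefore said what held without 1 of the 4 libraries. Where this is not said, a call may rest on 1 library. Markers of root hair, endodermis, stomatal lineage and shoot meristem were detected in both groups, and WUS was at 0 in 30WL and at 1 and 2 counts in 21WL.

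After 24 h, 192 genes were called higher in 30WL and 164 lower, which is 0.953% and 0.814% of the genes tested. At these shares, a short list without a call is not set apart from all genes. The groups did not overlap for 191 of the 192 and 154 of the 164, against 50.4% of all genes tested, 25.7% with 30WL higher and 24.7% with 30WL lower. The calls were made on the same libraries, so this describes the called genes and is no further support. Of the genes called, 45 rose and 40 fell by more than 2 on the log2 scale. The median log2FC of all genes tested was -0.00139. Scaling by library size alone, without the TMM factors, called 265 genes higher and 115 lower, moved that median to 0.10 and the share of higher calls to 69.7%, against 53.9% with TMM. Leaving out replicate 2 of 21WL left 96 higher and 82 lower, and leaving out replicate 1 of 30WL left 104 and 59. Without replicate 1 of 21WL, 296 were higher and 227 lower. In all, 54 of the 192 and 33 of the 164 were called in each of the 4 fits that leave out 1 library.

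**Figure D1:**
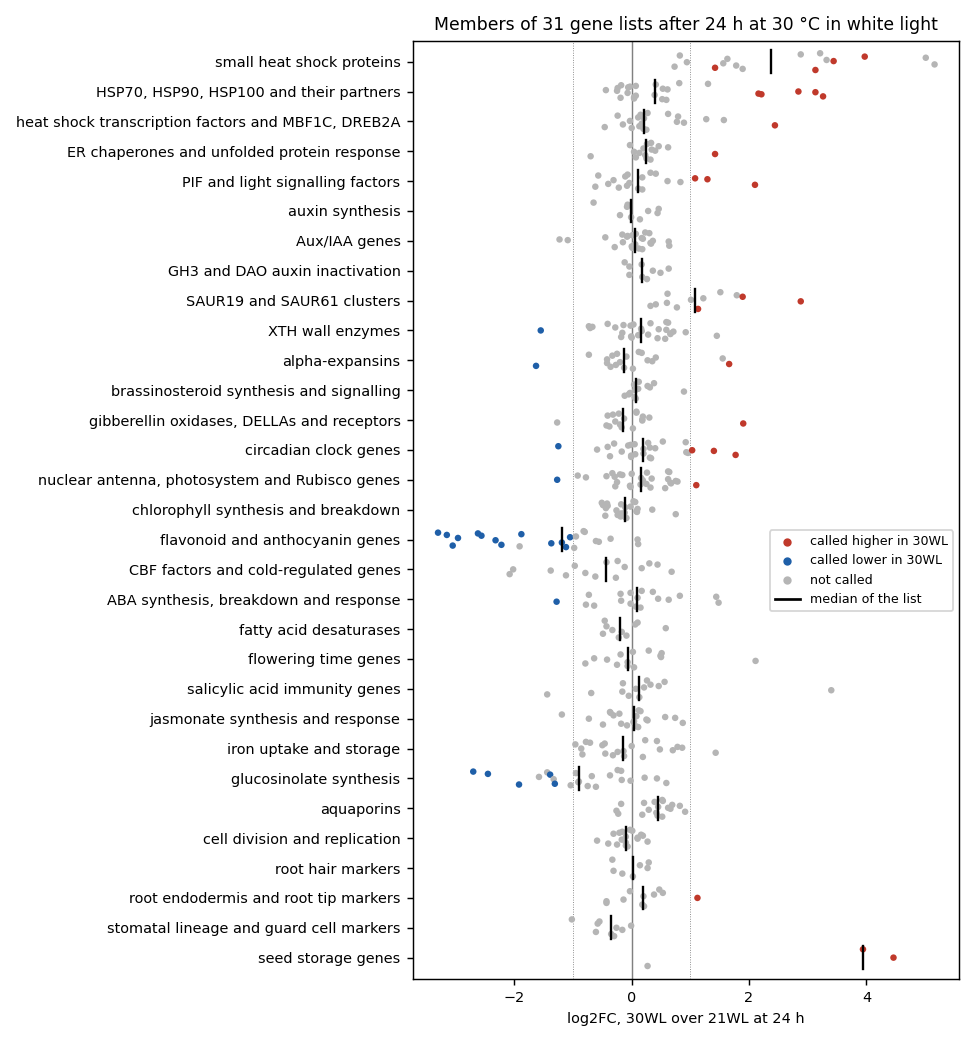
The log2FC of 30WL over 21WL at 24 h (x axis) of each tested member of 31 gene lists (y axis), with a black line at the list's median, dotted lines at 1 and -1, and colour for the call. Small heat shock proteins all lie above 0, flavonoid genes reach below -3, and the hormone lists sit around 0; FT is left out because it had at most 5 counts in any of the 4 libraries.

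Chaperones were few among the 192 genes but included 5 of the 12 largest rises that the rule for named genes picked. Of 16 small heat shock proteins, which hold unfolded proteins until they can be refolded, 4 were called higher and none lower. The share called higher was 25%, against 0.953% of all genes tested. The log2FC was above 0 for all 16, though a gene could pass the expression filter through libraries outside this comparison. The median log2FC of the list was 2.38, or 1.84 with 3 members whose level in 21WL was at or under 3 counts set to their bounds. With the filter on the 4 libraries compared, it was 1.89, and 4 were called. The count of 4 was 9 with the likelihood ratio test or with the libraries of 24 h alone and 7 with DESeq2, against 2 when only the 4 libraries were fitted or replicate 1 of 30WL was left out and 1 without replicate 2 of 21WL. HSP17.4 (AT3G46230) had 9.46 and 10.8 CPM in 30WL, against 0.81 and 0.475 CPM in 21WL (log2FC 3.97, SE 0.81, FDR 0.00304). AT5G51440, annotated as an HSP20-like chaperone, had 37.8 and 43.7 CPM in 30WL, against 3.44 and 4.07 CPM in 21WL (log2FC 3.44, SE 0.45, FDR 8.82e-05). Both genes thus had low levels in CPM and a wide gap between the groups. AT1G53540 had 6.13 and 3.23 CPM in 30WL, against 0.607 and 0.407 CPM in 21WL (log2FC 3.13, SE 0.94, FDR 0.0305). AT2G29500 had 15.7 and 11.8 CPM in 30WL, against 5.74 and 4.41 CPM in 21WL (log2FC 1.42, SE 0.37, FDR 0.0147). Of these 4, AT5G51440 was also called without each library in turn. Among the others, AT4G21870 had 61.4 and 65.3 CPM in 30WL, against 36 and 40.3 CPM in 21WL, and its FDR of 0.00142 came with a log2FC of 0.73, under the fold threshold. HSP17.6II and HSP23.6-MITO, named here after their values were seen, were at most at 3 counts per library in 21WL and at least 8.38-fold and 7.12-fold higher in 30WL, measured against a floor of 3 counts per library, without a call.

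The larger chaperones moved apart from one another. Of 25 genes of the HSP70, HSP90 and HSP100 families and their partners, 5 were called higher and none lower. The share called higher was 20%, against 0.953% of all genes tested. The median log2FC of the list was 0.39, which was 0.09 without replicate 2 of 30WL and 0.06 without replicate 1 of 21WL. HSP70 (AT3G12580), a heat-inducible cytosolic HSP70, had 251 and 354 CPM in 30WL, against 42 and 42.6 CPM in 21WL (log2FC 2.84, SE 0.48, FDR 8.85e-04). HSP90.1 (AT5G52640), the heat-inducible cytosolic HSP90, had 129 and 168 CPM in 30WL, against 18.4 and 15.7 CPM in 21WL (log2FC 3.13, SE 0.48, FDR 3.70e-04). ROF2 (AT5G48570), an FKBP-type immunophilin that binds HSP90, had 69.2 and 85.8 CPM in 30WL, against 8.03 and 8.14 CPM in 21WL (log2FC 3.26, SE 0.40, FDR 3.48e-05). In each of these 3 genes, the lower library of 30WL stood several times above the higher one of 21WL. HOP3, a co-chaperone between HSP70 and HSP90, had 90 and 96.9 CPM in 30WL, against 19.6 and 21 CPM in 21WL (log2FC 2.21, SE 0.25, FDR 1.43e-05). HSP70T-2 had 15.5 and 14.6 CPM in 30WL, against 3.58 and 3.12 CPM in 21WL (log2FC 2.16, SE 0.52, FDR 0.00978), and lost its call without replicate 1 of 30WL and without replicate 2 of 21WL. The abundant housekeeping members did not separate. HSC70-1, the main constitutive HSP70, had 1796 and 1943 CPM in 30WL, against 1735 and 2188 CPM in 21WL (log2FC -0.07, SE 0.14). The plastid chaperones HSP90.5, cpHSC70-1 and cpHSC70-2 had log2FC of 0.39, 0.04 and -0.44, and their groups overlapped. HSP90.2 and HSP81-3 are near-identical copies whose shared reads were not counted, so that their levels are partial.

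**Figure D2:**
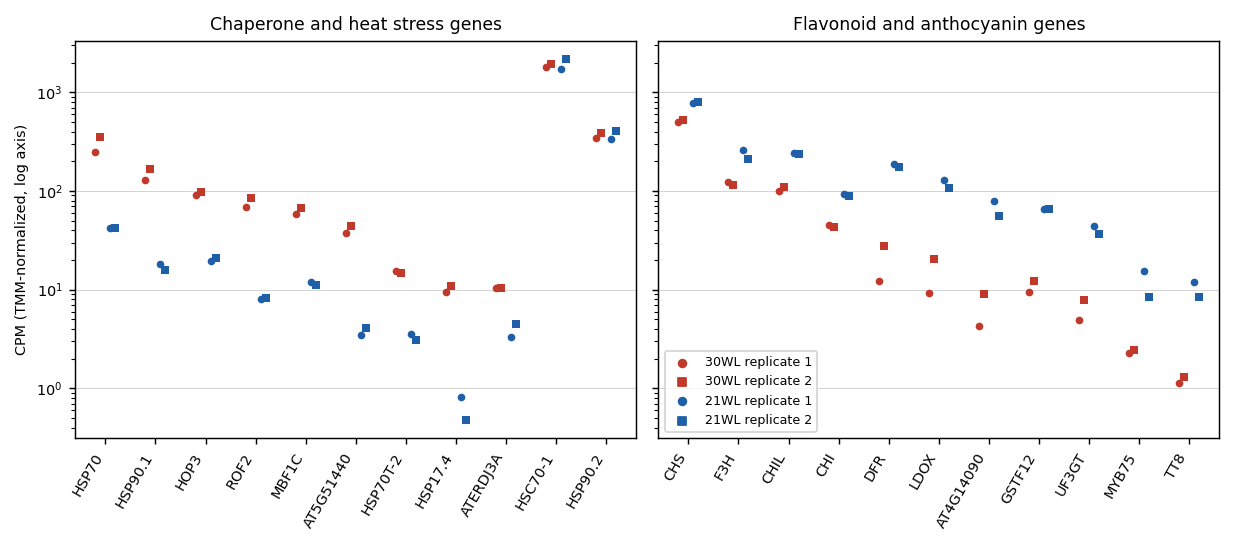
CPM on a log axis (y axis) in each of the 4 libraries for chaperone and heat stress genes (left) and flavonoid and anthocyanin genes (right), with 30WL in red left of 21WL in blue and circles and squares for replicates 1 and 2. HSP70 lies at 251 and 354 CPM in 30WL and near 42 in 21WL, HSC70-1 overlaps, and DFR lies at 12.2 and 27.7 CPM in 30WL, far under the 188 and 174 CPM of 21WL.

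Heat shock elements were looked for in the 300 bases before each gene start of the RefSeq annotation of TAIR10.1, as a description of the sequences. The word searched on both strands joins the units GAA, TTC and GAA, with any 2 bases (NN) between neighbouring units. It was found before 8 of the 192 genes called higher (4.17%), 1 of 163 called lower (0.613%) and 108 of all 20036 genes with such a window (0.539%). Of 41 chaperone genes with a window, 3 held it, and all 3 were among the 9 called higher, HSP17.4, AT1G53540 and HSP90.1. The windows of AT1G53540 and HSP90.1 overlap another gene, and in HSP90.1 the word starts 295 bases before the gene start. The G-box CACGTG, a word that PIFs and other bHLH and bZIP factors bind, stood before 11.5% of the genes called higher, 12.3% of those called lower and 8.27% of all genes. Both words overlapped in 1 of the 20036 windows. The 3 windows printed here belong to a chaperone, a metabolic enzyme and a clock gene, each called higher, free of any neighbouring gene and on the minus strand, with the heat shock element in capitals. In GolS1 and PRR7 it starts 100 and 74 bases before the gene start, and HSP17.4 has 2 copies, the first 99 bases before the start.
HSP17.4 (TAIR10.1 chr3:16984868-16985167, minus strand): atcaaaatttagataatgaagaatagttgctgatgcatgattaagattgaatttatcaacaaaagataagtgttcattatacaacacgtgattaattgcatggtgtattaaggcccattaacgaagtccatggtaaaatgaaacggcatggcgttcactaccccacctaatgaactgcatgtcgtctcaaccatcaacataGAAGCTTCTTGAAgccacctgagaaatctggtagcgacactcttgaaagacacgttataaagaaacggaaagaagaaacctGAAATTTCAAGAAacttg
GolS1 (TAIR10.1 chr2:19370479-19370778, minus strand): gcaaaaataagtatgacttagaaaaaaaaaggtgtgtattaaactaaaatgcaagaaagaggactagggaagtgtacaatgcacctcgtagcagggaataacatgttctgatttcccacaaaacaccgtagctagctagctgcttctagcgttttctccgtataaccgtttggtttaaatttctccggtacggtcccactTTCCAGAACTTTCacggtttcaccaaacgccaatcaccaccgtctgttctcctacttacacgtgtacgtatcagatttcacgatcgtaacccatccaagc
PRR7 (TAIR10.1 chr5:642031-642330, minus strand): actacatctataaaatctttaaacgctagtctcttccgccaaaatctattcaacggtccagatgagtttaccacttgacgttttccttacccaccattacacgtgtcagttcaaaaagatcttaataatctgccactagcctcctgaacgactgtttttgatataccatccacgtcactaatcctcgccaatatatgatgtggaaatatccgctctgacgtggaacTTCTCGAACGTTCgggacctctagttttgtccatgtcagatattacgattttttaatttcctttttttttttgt
Each of the 3 windows also holds a G-box, which does not touch the capitals.

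Of 23 HSFs and related regulators, 20 were tested, 1 was called higher and none lower, and the median log2FC was 0.21. The gene called was MBF1C, a heat-induced transcriptional coactivator, with 58.1 and 66.7 CPM in 30WL, against 12 and 11.1 CPM in 21WL (log2FC 2.44, SE 0.45, FDR 0.00163). HSFA1D, one of the constitutive HSFs that start the response, had 20.1 and 19.4 CPM in 30WL, against 17.3 and 17.7 CPM in 21WL (log2FC 0.17, SE 0.10, FDR 0.297). HSFB2A, HSFB2B and DREB2A had log2FC of 0.79, 0.62 and 0.77 without a call. Their groups did not overlap, as for 9 of the 20 with 30WL higher, against 25.7% of all genes tested. In the endoplasmic reticulum (ER), where BiP, calnexin and calreticulin fold secreted proteins, 1 of 16 genes was called higher and none lower (median log2FC 0.25). This was ATERDJ3A, a J-domain partner of BiP, with 10.5 and 10.4 CPM in 30WL, against 3.31 and 4.48 CPM in 21WL (log2FC 1.42, SE 0.41, FDR 0.0261), a call that was lost whichever library was left out. SHD, the ER HSP90, had 458 and 494 CPM in 30WL, against 353 and 408 CPM in 21WL, and BIP2 had 244 and 242 CPM in 30WL, against 229 and 242 CPM in 21WL (log2FC 0.32 and 0.04). Over the 16 ER genes, the log2FC was above 0 for 14. The groups stood apart with 30WL higher for 13, against 25.7% of all genes tested. With the FDR alone 4 were higher and 0 lower, against 5.58% and 6.73% of all genes. The list median lay between 0.22 and 0.31 when 1 library was left out.

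The question whether the late effect differed from the early one was asked by testing the log2FC at 24 h minus that at 1 h, 2 effects that share no library. It was called lower for 94 genes (0.467% of those tested) and higher for 55 (0.273%), together 149 or 0.74%. Of the 94, 75 had been called higher at 1 h, 66 of these were no longer called at 24 h and 9 were called at both times. Their median log2FC was 0.26 at 24 h, against 1.43 at 1 h. Of the 55, 27 had been called lower at 1 h and none of these 27 was called lower at 24 h. The median log2FC of the 55 was 0.30 at 24 h, against -0.98 at 1 h. Since both the rule for a call and these medians use the 1 h effect, they describe the genes and test nothing further.

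The 5 genes with the smallest FDR for this difference were all higher at 1 h. AT2G29500, the small heat shock protein named above, had a log2FC of 1.42 (SE 0.37) at 24 h, against 7.20 (SE 0.37) at 1 h, a difference of -5.78 (SE 0.509, FDR 3.84e-06). At 1 h its level was 825 and 1160 CPM in 30WL, against 7.54 and 6.03 CPM in 21WL. The fold at 24 h was thus a small remainder of that at 1 h. Hrd1B, a RING-type protein related to ER-associated degradation, had 77.8 and 69.3 CPM in 30WL, against 47.6 and 44.5 CPM in 21WL at 24 h (log2FC 0.67 at 24 h, against 2.13 at 1 h). SR30, a splicing factor of the SR family, had 133 and 121 CPM in 30WL, against 81.5 and 76.9 CPM in 21WL at 24 h (log2FC 0.68 at 24 h, against 1.93 at 1 h). UTR1, a transporter of UDP-sugars, had 16.3 and 15.6 CPM in 30WL, against 9.79 and 11 CPM in 21WL at 24 h (log2FC 0.62 at 24 h, against 2.10 at 1 h). These 3 genes kept a small difference between the groups, with FDR of 5.23e-04, 1.86e-04 and 0.00399 at 24 h. TPX1, a thioredoxin-dependent peroxidase, had 166 and 164 CPM in 30WL, against 176 and 166 CPM in 21WL at 24 h (log2FC -0.05 at 24 h, against 1.25 at 1 h). Leaving out 1 library moved the 149 calls of both directions to between 70, without replicate 2 of 21WL at 1 h, and 166, without replicate 1 of 21WL at 24 h. The other libraries that moved the count by more than 1.5 times were both of 30WL at 24 h (95 and 96) and replicate 1 of 30WL at 1 h (90).

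The chaperone lists are given by their values at each time, with no test between lists. Small heat shock proteins had a median log2FC of 6.71, 5.86, 2.65 and 2.38 at 1, 3, 6 and 24 h, with 15, 15, 8 and 4 members called higher. The difference between 24 h and 1 h was called lower for 3 of the 16, and for 0.467% of all genes tested. For the HSP70, HSP90 and HSP100 list the medians were 1.23, 0.95, 0.31 and 0.39, with 13, 12, 5 and 5 called higher, and the difference was called lower for 6 of 25. HOP3 (log2FC 2.21 at 24 h, against 4.93 at 1 h, FDR of the difference 2.70e-04) and ROF2 (3.26, against 6.86, FDR of the difference 0.00115) were among them. For HSP90.1 and HSP70, the difference had FDR of 0.0841 and 0.202, with log2FC of 3.13 and 2.84 at 24 h, against 5.36 and 4.57 at 1 h. ER genes had medians of 1.19, 0.55, 0.24 and 0.25, with 11, 1, 1 and 1 called higher, and the difference was called lower for 6 of 16. BIP2 (log2FC 0.04 at 24 h, against 1.15 at 1 h, FDR 0.00345) and CNX1, a calnexin (0.34, against 1.34, FDR 0.0268), were examples.

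**Figure D3:**
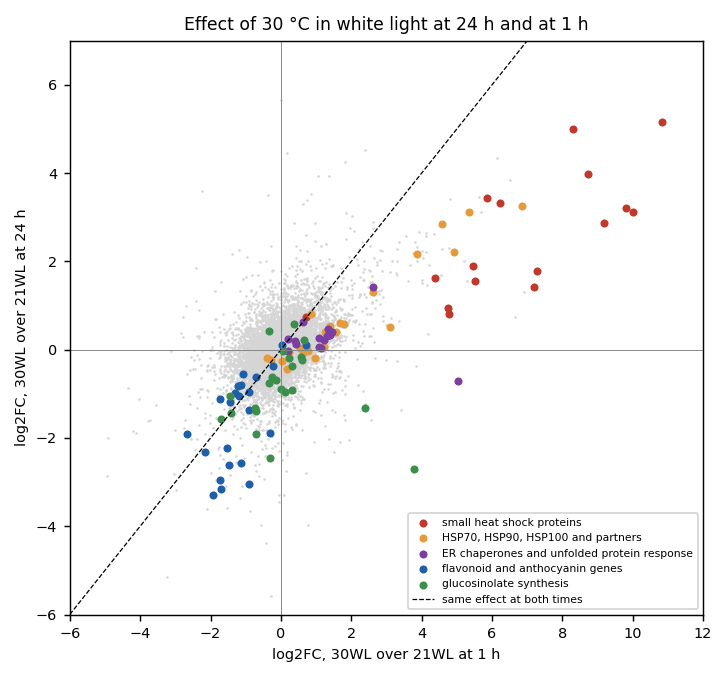
The log2FC of 30WL over 21WL at 24 h (y axis) against that at 1 h (x axis) for all 20145 genes tested (grey) and for 5 gene lists (colours), with a dashed line of equal effects. Small heat shock proteins and ER genes lie mostly under the line on the right, and 21 of the 23 flavonoid genes lie under 0 on both axes.

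Flavonoid and anthocyanin genes were the list with the most falls. Of 23 genes, 13 were called lower in 30WL (56.5%, against 0.814% of all genes tested) and none higher. The groups stood apart, with 30WL lower, for 21, against 24.7% of all genes tested. The median log2FC was -1.19, and between -1.27 and -1.04 when 1 library was left out. With library size alone 11 were called, and without replicate 1 of 30WL 8 were. Differences were smaller early in the pathway. CHS, chalcone synthase at its entry, had 503 and 525 CPM in 30WL, against 774 and 793 CPM in 21WL (log2FC -0.61, SE 0.16, FDR 0.0136). F3H had 124 and 115 CPM in 30WL, against 262 and 212 CPM in 21WL (log2FC -0.98, SE 0.21, FDR 0.00449). CHIL, a helper of chalcone synthesis, had 99.5 and 111 CPM in 30WL, against 243 and 238 CPM in 21WL (log2FC -1.19, SE 0.10, FDR 2.26e-07). Of these early genes CHIL passed the fold threshold, and CHS and F3H passed the FDR alone. CHI, chalcone isomerase, was called with a log2FC of -1.05 (FDR 4.20e-05), and F3'H, the flavonoid hydroxylase, with -1.12 (FDR 0.027). The call of F3'H held in 1 of the 4 fits without a library, and its log2FC was -0.61 without replicate 1 of 21WL. FLS1, which leads to flavonols, and UGT78D2, a glucosyltransferase of both branches, had log2FC of -0.56 and -0.80 and FDR of 0.0139 and 0.00544.

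The late enzymes that make and decorate anthocyanin fell further. DFR, dihydroflavonol reductase, had 12.2 and 27.7 CPM in 30WL, against 188 and 174 CPM in 21WL (log2FC -3.15, SE 0.61, FDR 0.00229). LDOX, the next enzyme, had 9.25 and 20.3 CPM in 30WL, against 129 and 107 CPM in 21WL (log2FC -2.96, SE 0.54, FDR 0.00135). AT4G14090, annotated as a UDP-glycosyltransferase and on the list as the anthocyanin 5-O-glucosyltransferase, had 4.26 and 8.96 CPM in 30WL, against 79.8 and 55.4 CPM in 21WL (log2FC -3.30, SE 0.67, FDR 0.00304). In all 3 genes, the higher library of 30WL lay far under the lower one of 21WL. UF3GT, which adds a sugar to anthocyanin, had 4.89 and 7.82 CPM in 30WL, against 43.8 and 36.4 CPM in 21WL (log2FC -2.62, SE 0.63, FDR 0.00922). GSTF12, a glutathione transferase needed to bring anthocyanin to the vacuole, had 9.56 and 12.3 CPM in 30WL, against 65.3 and 65.6 CPM in 21WL (log2FC -2.56, SE 0.51, FDR 0.00261). Outside the list, 3 acyltransferases were among the 12 largest falls, AT1G03495, AT1G03940 and AT5MAT, which attaches malonate to anthocyanin. AT5MAT had 2.81 and 5.09 CPM in 30WL, against 25.6 and 27.1 CPM in 21WL (log2FC -2.69, SE 0.68, FDR 0.0122). AT1G03495 had 1.98 and 2.01 CPM in 30WL, against 20 and 14 CPM in 21WL (log2FC -3.09), and AT1G03940 had 1.56 and 2.51 CPM in 30WL, against 17.1 and 12.1 CPM in 21WL (log2FC -2.80). The calls of AT5MAT and AT1G03940 did not hold without each library in turn.

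Regulators of the pathway fell as well, though not all. TT8, the bHLH factor that switches on late enzymes, had 1.14 and 1.29 CPM in 30WL, against 12 and 8.48 CPM in 21WL (log2FC -3.05, SE 0.65, FDR 0.00437). MYB75, also known as PAP1, its MYB partner in anthocyanin synthesis, had 2.29 and 2.44 CPM in 30WL, against 15.3 and 8.34 CPM in 21WL (log2FC -2.32, SE 0.73, FDR 0.0418). MYB11 and MYB111, which control early enzymes and flavonols, had log2FC of -2.22 and -1.88 and FDR of 5.23e-04 and 3.09e-04. UGT78D1, a flavonol rhamnosyltransferase, had a log2FC of -1.37 (FDR 2.42e-04). The call of MYB75 was lost whichever library was left out, and those of DFR, AT4G14090, UF3GT and TT8 without replicate 1 of 30WL, with log2FC of -2.71, -2.91, -2.36 and -2.98 there. The list had medians of -1.19, -1.32, -0.93 and -1.19 at 1, 3, 6 and 24 h, with 12, 16, 7 and 13 genes called lower. For DFR the log2FC was -1.70, -3.76, -3.59 and -3.15 at these times. MYB111 was the 1 member called for the difference between 24 h and 1 h (log2FC -1.88 at 24 h, against -0.30 at 1 h, FDR 0.032).

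The other large falls had other roles. NSP3, a nitrile specifier protein that steers the breakdown of glucosinolates, had 0.624 and 0.502 CPM in 30WL, against 5.26 and 8.48 CPM in 21WL (log2FC -3.62, SE 0.42, FDR 1.88e-05), the largest of the 12 falls picked by size. GSTF6, a stress-responsive glutathione transferase, had 7.07 and 13.8 CPM in 30WL, against 158 and 98.5 CPM in 21WL (log2FC -3.58, SE 0.55, FDR 3.87e-04). CYP82C4, a P450 of coumarin synthesis known from iron-starved roots, had 0.832 and 2.37 CPM in 30WL, against 11.1 and 19.5 CPM in 21WL (log2FC -3.18, SE 0.88, FDR 0.0211). All 3 were already lower at 1 h, with log2FC of -2.09, -1.54 and -2.97. AT3G16670, annotated in the Ole e 1 and extensin family, had 2.6 and 6.17 CPM in 30WL, against 13.8 and 52.8 CPM in 21WL (log2FC -2.86, SE 0.51, FDR 0.00131), and -0.61 at 1 h. The calls of CYP82C4 and AT3G16670 did not hold without each library in turn. Of 22 iron uptake and storage genes, 21 were tested and none was called in either direction (median log2FC -0.14). FER1, an iron store of plastids, had 48.7 and 208 CPM in 30WL, against 84.6 and 173 CPM in 21WL, so that its replicates differed more than its groups.

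Other large rises lay outside the chaperone lists. AT1G72660, annotated as a P-loop hydrolase, had 12.3 and 11.5 CPM in 30WL, against 0.675 and 0.475 CPM in 21WL (log2FC 4.35, SE 0.37, FDR 2.26e-07). AT5G25450, annotated as a subunit of the cytochrome bd ubiquinol oxidase, had 8.21 and 8.53 CPM in 30WL, against 0.27 and 0.882 CPM in 21WL (log2FC 3.85, SE 0.49, FDR 5.78e-05). GolS1, which makes galactinol, a precursor of raffinose sugars, had 47.3 and 43.4 CPM in 30WL, against 4.59 and 3.66 CPM in 21WL (log2FC 3.45, SE 0.39, FDR 1.24e-05). The log2FC of these 3 genes at 1 h was higher still, at 6.13, 6.50 and 5.62. TIN1, named for its induction by tunicamycin, an inhibitor of glycosylation in the ER, had 12.3 and 12.4 CPM in 30WL, against 0.877 and 1.42 CPM in 21WL (log2FC 3.42, SE 0.51, FDR 2.75e-04). AT2G15880, a leucine-rich repeat protein, had 44.7 and 18.4 CPM in 30WL, against 8.17 and 1.09 CPM in 21WL (log2FC 2.75, SE 0.53, FDR 0.00221), and AT2G23110, a late embryogenesis abundant protein, had 5.61 and 4.8 CPM in 30WL, against 1.42 and 0.204 CPM in 21WL (log2FC 2.67, SE 0.82, FDR 0.0361). In both genes replicate 2 of 21WL was the lowest library, as it was for LEA7 and RAB18, and neither call held without each library in turn.

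Seed storage genes, kept as a marker list, were higher in 30WL through few reads. CRA1, a cruciferin, had 5.41 and 15.4 CPM in 30WL, against 0.675 and 0.271 CPM in 21WL (log2FC 4.46, SE 0.87, FDR 0.00235), the largest of the 12 rises picked by size, though not called without replicate 2 of 21WL. CRC, a further cruciferin, had 0.208 and 6.88 CPM in 30WL, against 0.27 and 0.204 CPM in 21WL (log2FC 3.94, SE 1.16, FDR 0.028). Replicate 1 of 30WL was thus at the level of 21WL for CRC, and without replicate 2 of 30WL its log2FC was -0.18 (FDR 0.971). Over the 4 genes of the list, summed levels were 5.72 and 24.3 CPM in 30WL, against 2.02 and 0.543 CPM in 21WL, and CRU2 was at 0 in both libraries of 21WL. Whether residual seed RNA differed between the pools was not tested.

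Calls among glucosinolate genes depended on single libraries. Glucosinolates are sulfur-rich defence compounds, and the genes called belong to the branch that starts from methionine. Of 23 genes, 5 were called lower and none higher (median log2FC -0.90), and for 4 of the 5 the groups overlapped. The share called lower was 21.7%, against 0.814% of all genes tested. CYP79F1, a P450 of this branch, had 0.728 and 13.6 CPM in 30WL, against 8.84 and 89.3 CPM in 21WL (log2FC -2.70, SE 0.86, FDR 0.0483). MAM1, which lengthens the methionine chain, had 8.63 and 42.7 CPM in 30WL, against 28.9 and 171 CPM in 21WL (log2FC -1.92, SE 0.57, FDR 0.0307). BCAT4, the aminotransferase before it, had 2.91 and 15.4 CPM in 30WL, against 17.3 and 86.4 CPM in 21WL (log2FC -2.45, SE 0.60, FDR 0.0102). In these genes replicate 1 was several times lower than replicate 2 in both groups, 30WL was lower than 21WL within each replicate number, and replicate 1 of 21WL was also the library with high ATSDI1. MAM3 and BASS5, a transporter of the chain elongation, had log2FC of -1.39 and -1.31 (FDR 0.0388 and 0.0402). The number of members called lower was 14 without replicate 1 of 21WL, 9 without replicate 2 of 30WL and 0 without replicate 2 of 21WL or without replicate 1 of 30WL, 2 with library size alone and 6 with a replicate block. The list median was -1.39 without replicate 1 of 21WL and -0.03 without replicate 2. Genes of the branch from tryptophan moved less. CYP79B3 had 96.3 and 99.4 CPM in 30WL, against 63.6 and 105 CPM in 21WL (log2FC 0.22), and CYP83B1 84.4 and 101 CPM in 30WL, against 99.2 and 142 CPM in 21WL (log2FC -0.37). MYB28, the main factor of the methionine branch, had 48.7 and 68.8 CPM in 30WL, against 82.7 and 106 CPM in 21WL (log2FC -0.68, SE 0.17, FDR 0.0131).

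**Figure D4:**
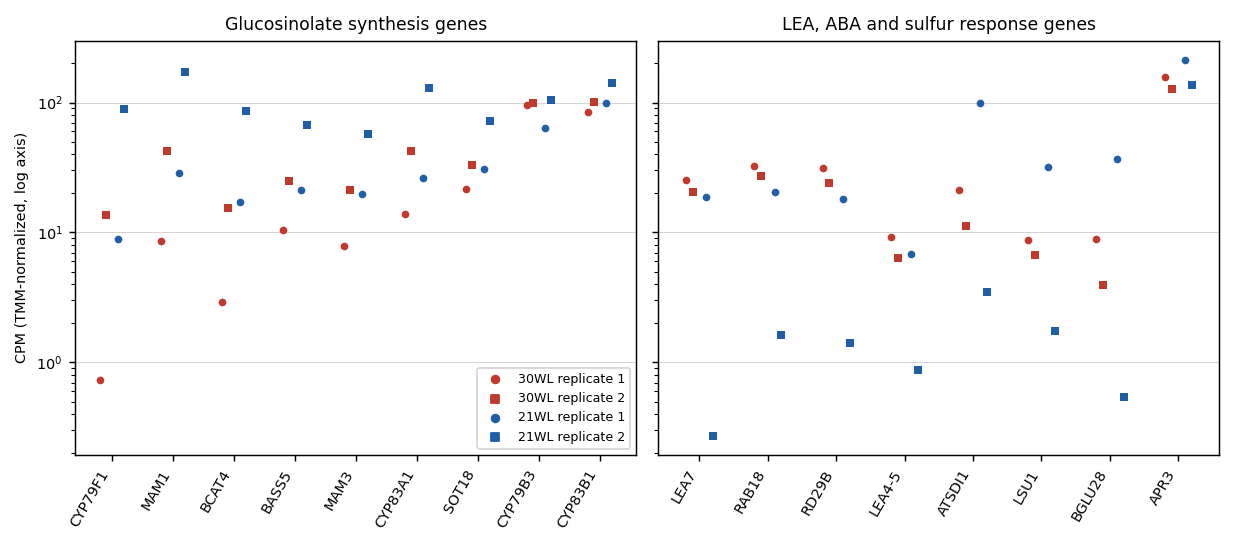
CPM on a log axis (y axis) in each library for 9 glucosinolate genes (left) and for LEA, ABA and sulfur response genes chosen after their values were seen (right), with 30WL in red left of 21WL in blue and circles and squares for replicates 1 and 2. Replicate 1 lies under replicate 2 in both groups for MAM1 (8.63 and 42.7 in 30WL, 28.9 and 171 in 21WL), and replicate 2 of 21WL is the lowest library for every gene of the right panel except APR3.

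Of 19 PIF and light signalling genes, PIF4, PIF5 and HFR1 were called higher and none lower. The share called higher was 15.8%, against 0.953% of all genes tested. In the list, the log2FC was under 0 for 9, with a median of 0.11. PIF4, the bHLH factor at the centre of warm growth, had 61.9 and 52.3 CPM in 30WL, against 18.1 and 8.41 CPM in 21WL (log2FC 2.10, SE 0.26, FDR 5.03e-05). PIF5, its close relative, had 74.4 and 66.5 CPM in 30WL, against 34.3 and 32 CPM in 21WL (log2FC 1.08, SE 0.17, FDR 3.87e-04). PIF4 was called without each library in turn, with log2FC between 1.66 and 2.76, while PIF5 lost its call without replicate 1 of 30WL. HFR1, an HLH protein that holds PIFs in check, had 8.94 and 7.03 CPM in 30WL, against 4.25 and 2.17 CPM in 21WL (log2FC 1.29, SE 0.33, FDR 0.0138), and lost its call without replicate 1 of 30WL and without replicate 2 of 21WL. PHYB, the photoreceptor that also senses temperature, had 84.2 and 86.6 CPM in 30WL, against 92.8 and 87.2 CPM in 21WL (log2FC -0.07, SE 0.08), and COP1 had a log2FC of -0.04 (SE 0.08).

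Auxin genes showed few calls, as did all genes tested, of which 0.953% were called higher and 0.814% lower. None of 9 tested synthesis genes, 25 Aux/IAA genes or 9 genes of auxin inactivation was called in either direction, with medians of -0.01, 0.06 and 0.18. At those shares, the lack of a call does not set these lists apart. With the FDR alone, 2 Aux/IAA genes were higher and 1 was lower, 2 inactivation genes were higher and no synthesis gene passed. YUC8, a flavin monooxygenase that makes auxin, had 5.82 and 4.8 CPM in 30WL, against 4.66 and 2.98 CPM in 21WL (log2FC 0.46, SE 0.31). IAA16 had 189 and 182 CPM in 30WL, against 156 and 132 CPM in 21WL (log2FC 0.36, SE 0.10, FDR 0.0184). SAUR genes, short auxin-induced transcripts that promote cell expansion, did hold calls. Of 14 genes of the SAUR19 and SAUR61 clusters, 12 were tested, all 12 had a log2FC above 0 and 3 were called higher, with a median of 1.07, or 0.89 with 2 genes at their bounds. The median was 0.60 without replicate 1 of 21WL and 0.75 without replicate 2 of 30WL. A gene could pass the expression filter through libraries outside this comparison. With the filter on the 4 libraries compared, the median was 0.77 and 2 genes were called. When only these 4 libraries were fitted, 0 were called. SAUR20 had 3.53 and 3.87 CPM in 30WL, against 1.75 and 1.63 CPM in 21WL (log2FC 1.13, SE 0.33, FDR 0.0285). SAUR21 had 2.7 and 3.3 CPM in 30WL, against 0.675 and 0.95 CPM in 21WL (log2FC 1.89, SE 0.44, FDR 0.00779). SAUR22 had 0.624 and 1.36 CPM in 30WL, against 0.202 and 0.0678 CPM in 21WL, which is at least 4.89-fold higher against a floor of 3 counts per library. None of the 3 was called without each library in turn, and SAUR19 to SAUR24 are alike in sequence, so that their counts are partial.

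Among wall and hormone genes, single members stood out. EXPA8, an expansin, which loosens cell walls, had 44.7 and 43 CPM in 30WL, against 14.4 and 13.2 CPM in 21WL (log2FC 1.66, SE 0.24, FDR 1.96e-04), and was called without each library in turn. EXPA12 had 0.728 and 0.574 CPM in 30WL, against 2.77 and 1.22 CPM in 21WL (log2FC -1.63, SE 0.53, FDR 0.046), a call that held in 1 of the 4 fits without a library. The other 17 of 19 expansins were not called, and EXPA1, the most abundant, had 220 and 253 CPM in 30WL, against 145 and 227 CPM in 21WL (log2FC 0.35, SE 0.18). Of 29 XTH genes, whose enzymes cut and join xyloglucan, XTH20 was called lower, with 1.87 and 3.51 CPM in 30WL, against 8.17 and 8.07 CPM in 21WL (log2FC -1.55, SE 0.35, FDR 0.00659), though not without replicate 1 of 30WL. GA2OX4, which inactivates gibberellin, was the 1 of 18 tested gibberellin genes called, with 1.66 and 1.43 CPM in 30WL, against 0.54 and 0.271 CPM in 21WL (log2FC 1.90, SE 0.49, FDR 0.0137), and its call was lost without replicate 1 of 30WL or replicate 2 of 21WL. None of 13 brassinosteroid genes was called (median log2FC 0.07).

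Clock genes were called in both directions. Of 26 genes, 3 were higher (11.5%) and 1 lower (3.85%), against 0.953% and 0.814% of all genes tested (median log2FC 0.20). PRR7, a daytime repressor of the morning genes, had 136 and 107 CPM in 30WL, against 49.1 and 21.7 CPM in 21WL (log2FC 1.77, SE 0.26, FDR 1.96e-04). LNK1, a coactivator that works with the RVE factors, had 75.9 and 74.6 CPM in 30WL, against 33.6 and 23.2 CPM in 21WL (log2FC 1.40, SE 0.17, FDR 3.20e-05). LHY, a morning factor, had 66.1 and 72.9 CPM in 30WL, against 134 and 198 CPM in 21WL (log2FC -1.25, SE 0.26, FDR 0.00387). CCA1, the close relative of LHY, did not follow it, with 110 and 98.5 CPM in 30WL, against 76.3 and 94.9 CPM in 21WL (log2FC 0.28, SE 0.26). LNK2 had 475 and 370 CPM in 30WL, against 196 and 219 CPM in 21WL (log2FC 1.03, SE 0.29, FDR 0.0233). PRR7 and LNK1 were called without each library in turn, and LHY and LNK2 were not. TOC1 and ELF3, evening genes, had log2FC of -0.06 and -0.17. A single time point of 24 h does not separate a change of level from a shift of phase.

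Photosynthesis genes took most of the counts among the lists and held 2 calls. Summed over 29 nuclear antenna, photosystem and Rubisco genes, levels were 95452 and 91970 CPM in 30WL, against 84692 and 113203 CPM in 21WL, so that the groups overlapped, and 1 gene was called higher and 1 lower. LHCB1.5, an antenna protein, had 6636 and 5010 CPM in 30WL, against 3046 and 2384 CPM in 21WL (log2FC 1.10, SE 0.17, FDR 3.98e-04), without the call in the absence of replicate 1 of 30WL or replicate 2 of 21WL. LHCB1.3, a near-identical copy, had 6209 and 5664 CPM in 30WL, against 6238 and 7358 CPM in 21WL (log2FC -0.20, SE 0.12), and reads shared by such copies were not counted. ELIP2, an early light-induced protein of stressed plastids, had 21.3 and 16.7 CPM in 30WL, against 50.3 and 40.6 CPM in 21WL (log2FC -1.27, SE 0.21, FDR 8.06e-04). RBCS1A, the main small subunit of Rubisco, had 15372 and 16692 CPM in 30WL, against 21766 and 33423 CPM in 21WL (log2FC -0.78, SE 0.16, FDR 0.00304), and was the most abundant gene named here. None of 23 tested chlorophyll genes was called (median log2FC -0.12).

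In water channels, many small shifts went the same way. None of 18 aquaporins was called, yet 11 had an FDR under 0.05 with a log2FC above 0 and none with a log2FC under 0, against 5.58% and 6.73% of all genes, and the median was 0.44. PIP2A, a channel of the plasma membrane, had 963 and 992 CPM in 30WL, against 584 and 654 CPM in 21WL (log2FC 0.66, SE 0.12, FDR 0.00116). PIP3 had 787 and 732 CPM in 30WL, against 421 and 520 CPM in 21WL (log2FC 0.69, SE 0.14, FDR 0.00359). The list median lay between 0.41 and 0.48 when 1 library was left out, and at 0.63, 0.84 and 0.31 at 1, 3 and 6 h.

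Stress hormone and cold lists had few calls, as did all genes tested (0.953% higher and 0.814% lower). Of 18 ABA genes, CYP707A2, which breaks down ABA, was called lower, with 2.91 and 4.16 CPM in 30WL, against 7.83 and 9.7 CPM in 21WL (log2FC -1.28, SE 0.29, FDR 0.00611), though not without replicate 1 of 30WL or replicate 2 of 21WL. The ABA list had a median log2FC of 0.09, of 0.69 without replicate 1 of 21WL and of -0.28 without replicate 2. The CBF and cold-regulated list was as dependent on the same libraries, with no call among 15 tested genes and a median of -0.43, 0.06 without replicate 1 of 21WL and -0.98 without replicate 2. COR47, a dehydrin, had 235 and 215 CPM in 30WL, against 208 and 192 CPM in 21WL (log2FC 0.17, SE 0.19). None of 21 tested jasmonate genes and 13 tested salicylic acid genes was called. LOX2, a lipoxygenase of jasmonate synthesis, had 182 and 183 CPM in 30WL, against 572 and 262 CPM in 21WL (log2FC -1.19, SE 0.41, FDR 0.0598).

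The remaining lists held 2 calls. None of 10 fatty acid desaturases was called, and FAD2, which makes linoleic acid in the ER, had 694 and 654 CPM in 30WL, against 511 and 393 CPM in 21WL (log2FC 0.58, SE 0.14, FDR 0.0102). FT, the mobile flowering signal, passed the test as lower with 0 in both libraries of 30WL, against 0.135 and 0.339 CPM in 21WL, which are 2 and 5 counts, so that no fold is given. Its call was lost with the replicate block, DESeq2, library size alone, no expression filter, both smaller sets of libraries and in 3 of the 4 fits without a library. SMZ, a repressor of flowering, had 18.7 and 21.9 CPM in 30WL, against 34.4 and 36.2 CPM in 21WL (log2FC -0.79, SE 0.15, FDR 0.00178). None of 18 cell division genes was called (median log2FC -0.10). Summed root hair markers were at 182 and 159 CPM in 30WL, against 231 and 119 CPM in 21WL. Endodermis and root tip markers were at 152 and 134 CPM in 30WL, against 140 and 130 CPM in 21WL. Stomatal markers were at 56.6 and 66 CPM in 30WL, against 68 and 81.4 CPM in 21WL. All 9 stomatal markers had a log2FC under 0 (median -0.35, and -0.50 to -0.27 without 1 library). The groups stood apart for 7 of the 9, against 24.7% of all genes with 30WL lower. None of the 9 was called, and a change in cell composition was not tested. CASP5, which helps to build the Casparian strip, was the 1 marker of root or shoot called, with 9.67 and 7.82 CPM in 30WL, against 4.79 and 3.19 CPM in 21WL (log2FC 1.12, SE 0.27, FDR 0.0103), and lost its call without replicate 1 of 30WL or replicate 2 of 21WL.

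**Figure D5:**
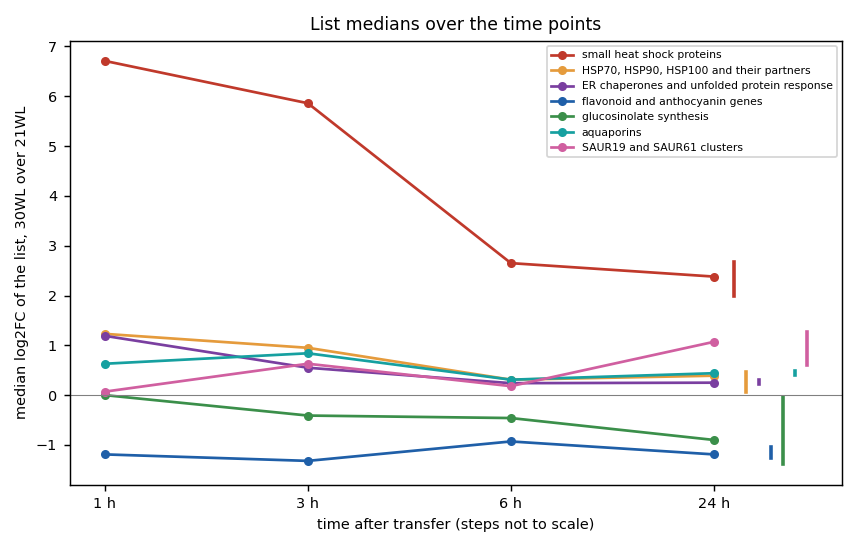
Median log2FC of 30WL over 21WL (y axis) of 7 gene lists at 1, 3, 6 and 24 h (x axis, not to scale). Bars at the right give the range of the 24 h median when 1 library is left out, from -1.39 to -0.03 for glucosinolate genes and from -1.27 to -1.04 for flavonoid genes; the small heat shock protein list lies at 6.71 at 1 h and 2.38 at 24 h.

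Calls at 24 h were set beside those of earlier times, which rest on other libraries. At 1, 3 and 6 h, 459, 355 and 218 genes were called higher (2.28%, 1.76% and 1.08% of those tested) and 346, 268 and 126 lower (1.72%, 1.33% and 0.625%). Of the 192 genes higher at 24 h, 83, 101 and 79 were also called higher at 1, 3 and 6 h, which is 43.2%, 52.6% and 41.1% of the 192 and 18.1%, 28.5% and 36.2% of the genes called at those times. Of the 164 lower, 48, 82 and 47 were also called lower, which is 29.3%, 50% and 28.7% of the 164 and 13.9%, 30.6% and 37.3% of those called at those times. Calls at every time numbered 48 higher and 20 lower, and 62 of the higher and 64 of the lower genes were called at 24 h and at no earlier time. Of the genes called at 24 h, 1 higher gene was called lower at 1 h and 1 lower gene was called higher at 1 h, and none changed sides between 24 h and 3 or 6 h.

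The same step from 21 to 30 °C was also made under low red to far-red light (30FR against 21FR, R/FR 0.6), in 4 other libraries of 24 h. There, 324 genes were called higher and 261 lower (1.61% and 1.3% of those tested). Of the 192 genes higher in 30WL, 104 were called higher in 30FR too (54.2% of the 192 and 32.1% of the 324), and 74 of the 164 lower ones were lower there (45.1% and 28.4%). None was called in the opposite direction. The 192 had a median log2FC of 1.43 in white light and 1.13 in low R/FR, and the 164 of -1.38 in white light and -1.04 in low R/FR, and the values in white light are raised in size by the choice of the genes. Tested as a difference between the 2 effects, 2 genes were called (0.00993%), both with a difference above 0 for white light minus low R/FR, and 1316 had an unadjusted p under 0.05. EFE (AT1G05010), an ACC oxidase that makes ethylene, had 154 and 190 CPM in 30WL, against 105 and 102 CPM in 21WL (log2FC 0.74, SE 0.12), and 190 and 184 CPM in 30FR, against 246 and 240 CPM in 21FR (log2FC -0.38, SE 0.12). The difference was 1.11 (SE 0.167, FDR 0.0131). AT4G27300, annotated as an S-locus lectin protein kinase, had 17.2 and 15.3 CPM in 30WL, against 13.1 and 12.5 CPM in 21WL (log2FC 0.34, SE 0.14), and 8.02 and 6.66 CPM in 30FR, against 15.2 and 17.2 CPM in 21FR (log2FC -1.14, SE 0.14). Its difference was 1.48 (SE 0.201, FDR 0.00617), while its effect in white light alone had an FDR of 0.132. Neither call was kept when replicate 2 of 30FR or of 21FR was left out, or in a fit on the libraries of 24 h alone.

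Several growth and clock genes had a larger log2FC in white light without a call for the difference. PIF4 had 2.10 (SE 0.26) in white light, against 0.67 in low R/FR (FDR of the difference 0.278). For PIF5 the log2FC was 1.08 in white light, against 0.13 in low R/FR (FDR of the difference 0.269), for EXPA8 1.66, against 0.39 (FDR 0.292), and for PRR7 1.77, against 0.63 (FDR 0.495). SAUR genes had a median of 1.07 in white light (0.60 to 1.27 without 1 library) and 0.09 in low R/FR, with 3 called higher in white light and 0 in low R/FR. The difference between light conditions was not called for any gene of these lists, so that these values do not show that warming acts differently in the 2 lights. Small heat shock proteins had a median of 2.38 in white light, against 2.47 in low R/FR, and flavonoid genes of -1.19 in white light, against -0.84 in low R/FR.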

How the data were processed

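RNA was measured in whole Col-0 seedlings by stranded poly(A) mRNA-seq, and this account uses the 30WL and 21WL libraries of 24 h within all 32. The authors aligned single-end reads to TAIR10 with STAR 2.5.4, assigned them to genes by strand with HTSeq 0.6.0 and deposited raw counts without normalization. Reads aligned to more than 1 place, 10.5 to 15.2% of the entries in the 4 libraries, were not counted, so that near-identical genes were counted in part, and reads without a gene made up 3 to 3.43%. Summary lines of the table were left out. A deposited table of normalized values was not used.

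Groups came from the sample titles. Tested genes exceeded 1 CPM in 2 or more libraries (20145 of 33602 in the table). After TMM normalization, edgeR 4.0.16 (R 4.3.3) fitted 1 coefficient for each of 16 groups. Contrasts were tested with the quasi-likelihood test and Benjamini-Hochberg adjustment over all genes tested. The common biological coefficient of variation was 0.115. A floor of 3 counts came to between 0.202 and 0.312 CPM in the 4 libraries, and a fold against a group at or under it is given as a bound. It covers counting error only. With 2 replicates in each group, p-values rest on a spread shared across genes and groups. On counts simulated with 200 of 19830 genes changed, 200 were called for 30WL over 21WL at 24 h. For the difference from 1 h 198 were called, and for that between lights 199, with 0, 7 and 5 false calls in turn. The changed genes had a mean over 5 CPM and moved by 2 on the log2 scale. Every gene was given the same coefficient of variation of 0.115. The simulation thus checks the code, and gives no power or error rate for the real libraries.

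The members and the 32 gene lists were chosen with earlier results of these data known. The genes named are the 12 largest rises and 12 largest falls among called genes with a mean of at least 5 CPM in the higher group, groups that do not overlap and an absolute log2FC over 1 without each library in turn, the called members and up to 4 other abundant members of each list, and up to 5 genes with the smallest FDR for each difference of effects. Alternatives were the likelihood ratio test, DESeq2 1.42.0, its size factors, library size alone, other filters, fewer libraries in the fit, a replicate block, the FDR alone and leaving out each library. Symbols, gene starts and sequence came from RefSeq (TAIR10.1), since the counts carry no coordinates. Tables and figures were made with Python, pandas and matplotlib.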

Additional observations from a re-analysis of the deposited data

Results flagged for a closer look

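The effect of warming in white light differed between 24 h and 1 h for 149 genes by edgeR's quasi-likelihood test of the difference itself. The 5 with the smallest FDR had differences in log2FC, 24 h minus 1 h, of -5.78 for AT2G29500, -1.46 for Hrd1B, -1.25 for SR30, -1.30 for TPX1 and -1.48 for UTR1. In all 5, both libraries of 30WL at 1 h lay above both of 21WL at 1 h. The genes were picked by a difference that uses these 1 h libraries, so this describes them and tests nothing further.

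Between white light and low R/FR at 24 h, the effect of warming differed for 2 genes by the same test, with differences of 1.48 for AT4G27300 and 1.11 for EFE. In both genes the log2FC was above 0 in white light and under 0 in low R/FR. For AT4G27300 the effect in white light alone had an FDR of 0.132, so that a rise there is not shown. Groups of 2 libraries are too small for a search for single outlying samples, and no data outside the main measurement were used.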

How the results depend on the processing

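The numbers of genes called higher and lower were within 1.5 times the 192 and 164 reported under the likelihood ratio test, DESeq2, DESeq2's size factors, library size alone, both other filters, the 8 libraries of 24 h alone and the replicate block. They came to 52 and 30 when only the 4 libraries were fitted, with few degrees of freedom, and to 1125 and 1356 with the FDR alone. Leaving out 1 library gave 96 to 296 higher and 59 to 227 lower. The difference between 24 h and 1 h gave 149 genes, 58 when only its 8 libraries were fitted, 371 with the FDR alone and 70 to 166 when 1 library was left out. The difference between white light and low R/FR gave 2 genes, 13 with the likelihood ratio test, 12 with DESeq2, 5 without a filter, 0 with only the libraries compared and with those of 24 h, and 0 to 7 when 1 library was left out. The cause of these shifts was not tested.

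Replicates 1 and 2 share numbers across groups, and the replicate 1 minus 2 differences of 30WL and 21WL correlated at 0.284 over genes. The study describes each replicate as a fully independent pool, whose plants grew side by side. Neither the study nor the labels say that a number marks 1 growth, and with 2 pairs the numbers were not taken as pairs. The replicate block within each time point called 191 higher, 159 lower, 135 for the difference from 1 h and 2 for that between lights, and 179 and 149 of the calls were the same genes.

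Of 191 named genes, 63 were called. Fitting only the 4 libraries ended 35 calls, leaving out replicate 1 of 30WL 32, and leaving out replicate 2 of 21WL 27. The 1 reversal was CRC, at -0.18 without replicate 2 of 30WL, and between -0.18 and 4.82 over the fits without a library. The depth limits low genes most, since 10 genes called higher were at or under 3 counts in 21WL and 4 called lower in 30WL.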
